A study of Mus musculus with 24 samples.

Results

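Glycogen genes of the skeletal muscle were examined in the gastrocnemius of male C57BL/6N mice, starting from Stbd1, which was chosen by its measured difference between cHF+F and cHF mice in these arrays, and extending to 8 genes of glycogen synthesis, breakdown and their control (Gys1, Pygm, Gbe1, Phka1, Phkg1, Ppp1r3a, Ppp1r3c and Ugp2), which were taken by name. The 9 genes were found by their symbol, or by the current symbol of their accession, on 13 of the 41174 probes of a whole genome array, and 12 of these probes, at least 1 for each gene, were among the 15958 bright enough to be compared. The mice were adult at the start (3 months old) and were fed for 8 weeks a corn-oil-based high-fat diet with 35% lipids (cHF), this diet with 15% of its lipids exchanged for a marine n-3 LC-PUFA concentrate, rich in the fatty acids DHA (46%) and EPA (14%) (cHF+F), or the same diet with rosiglitazone, an anti-diabetic ligand of the nuclear receptor PPARγ, at 10 mg per kg diet (cHF+ROSI). Each group had 8 mice, and all mice were fasted for 10 hours in the light phase, re-fed a low-fat Chow diet during the night and killed in the morning, so that every value below is that of re-fed muscle and none is that of muscle on the high-fat diet itself. RNA of each mouse, labelled with Cy5, was hybridized against a common pool labelled with Cy3, and a value is the log2 ratio of Cy5 over Cy3 on 1 array, where 0 is the level of the pool and 1 is a doubling.

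Glycogen is the store of glucose in muscle fibres, built after a meal and broken down during contraction and fasting. Glucose is activated to UDP-glucose, which glycogen synthase adds to growing chains that the branching enzyme then rearranges, while phosphorylase, switched on by phosphorylase kinase, removes glucose units. Protein phosphatase 1, held on the glycogen particle by targeting subunits, drives the balance towards synthesis. Stbd1 (starch-binding domain-containing protein 1) binds glycogen through a carbohydrate-binding domain and anchors it to membranes, and it is known as a receptor that hands glycogen to the lysosome through proteins of the GABARAP family.

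Each of 8 slides carried 1 array of each diet, and each diet kept 1 fixed position on every slide, so that position and diet cannot be told apart. Well above background in Cy5 were 30.4% to 61.3% of the spots per array, except for 91.1% on cHF+ROSI replicate 4. All 10 skeletal muscle markers listed for the tissue, Acta1, Ckm and Myh4 among them, were well above background on 24 of 24 arrays. In the bulk tissue, fewer cells of a type and less RNA per cell cannot be told apart.

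The Stbd1 probe that the rule found lies at chr5:93681311-93681370 of mouse build mm8, on the plus strand, and is listed in the files under the older name D5Ertd593e. It was well above background in Cy5 and in Cy3 on 24 of 24 arrays, with a mean signal of 40.4 times the background in Cy5. The RefSeq promoter windows, which run from 250 bases before to 50 bases after a gene's start, hold all 9 genes, 10 windows in all since Ugp2 has 2 starts. Those of Stbd1 and of Ppp1r3c are printed because these were the members with the widest spread within groups and, as described below, deviated together. They are given 5′ to 3′ along the gene in build GRCm38.p6, from chr5:92602801-92603100 on the plus strand for Stbd1 and from chr19:36736555-36736854 on the minus strand for Ppp1r3c. Capitals mark the GC box GGGCGG in Stbd1 and the E-box CACGTG and the CCAAT box (CCAAT or ATTGG) in Ppp1r3c.
Stbd1: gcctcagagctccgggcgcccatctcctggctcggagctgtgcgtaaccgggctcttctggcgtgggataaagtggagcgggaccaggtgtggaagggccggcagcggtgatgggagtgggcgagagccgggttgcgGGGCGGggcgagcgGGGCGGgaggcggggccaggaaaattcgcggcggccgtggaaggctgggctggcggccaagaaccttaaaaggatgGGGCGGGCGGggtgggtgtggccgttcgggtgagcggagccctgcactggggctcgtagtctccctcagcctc
Ppp1r3c: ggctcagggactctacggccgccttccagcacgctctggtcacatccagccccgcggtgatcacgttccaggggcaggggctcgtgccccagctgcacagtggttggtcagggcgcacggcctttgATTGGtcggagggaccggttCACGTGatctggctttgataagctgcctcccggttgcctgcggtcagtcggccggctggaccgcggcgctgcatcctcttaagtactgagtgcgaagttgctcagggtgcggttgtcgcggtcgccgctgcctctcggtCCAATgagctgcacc
The Stbd1 window held 4 copies of GGGCGG on the gene's strand, starting at bases -113, -99, -23 and -19 from the start, the last 2 of which overlap, and 70.7% of its bases were G or C against a median of 52.7% over 32851 windows. The Ppp1r3c window held none of these boxes, but CACGTG at base -104 and the CCAAT box at bases -124 and 36. On either strand, GGGCGG was found in 35.7% of all windows, the CCAAT box in 37.4% and CACGTG in 7.15%. Of the 9 genes, CACGTG was found in Ppp1r3c only. TATAAA, found in 13.6% of all windows, was present in that of Ppp1r3a and in neither window printed here. The motifs do not overlap each other except where stated.

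Stbd1 was the highest in the cHF+F mice, at a log2 ratio of 0.44 ± 0.48 (SD, n = 8), and lay close together in the cHF+ROSI (-0.14 ± 0.35) and the cHF mice (-0.20 ± 0.31). In the cHF mice, the lowest array was at -0.47, the median at -0.30 and the highest, replicate 2, at 0.37. In the cHF+F mice, the values ran from -0.017 over a median of 0.29 to 1.26, the highest again being replicate 2, followed by replicate 1 with 1.03. The cHF+F and the cHF groups overlapped: all 8 cHF+F arrays lay above the cHF mean, but only 4 lay above the highest cHF array. The cHF+ROSI mice ran from -0.96 over -0.098 to 0.23, and 7 of them lay between -0.18 and 0.23, with replicate 1 far below.

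**Figure D1:**
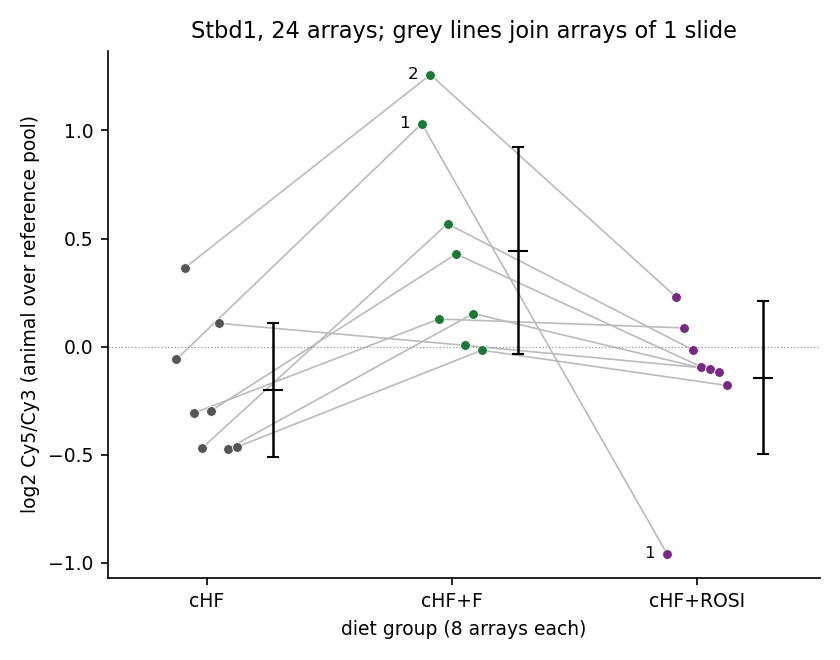
Log2 ratio of Cy5 (1 mouse) over Cy3 (common pool) of Stbd1 on 24 arrays, by diet. Points are arrays, grey lines join the 3 arrays of a slide, bars are the mean and SD of 8 arrays, and the numbers mark the replicates named in the text. The 2 highest cHF+F arrays are at 1.26 and 1.03, and 1 cHF+ROSI array lies at -0.96.

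The difference of Stbd1 between the cHF+F and the cHF mice was 0.64 on the log2 scale, or 1.56-fold (SE 0.18). It is the difference for which the gene was chosen, so it is given as a description and was not tested. Within slides, the cHF+F array exceeded the cHF array by 1.09, 0.89, 0.44, 1.04, 0.73, 0.63 and 0.45 on slides 1, 2, 3, 4, 5, 7 and 8, and was lower by 0.10 on slide 6, thus higher on 7 of 8 slides. Relative to rosiglitazone-fed mice, cHF+F mice differed by 0.59 (SE 0.18), which uses the same cHF+F arrays and was likewise not tested, and the cHF+F array was the higher one on 8 of 8 slides. It was 0.47 without replicate 1 of the cHF+ROSI group and 0.35 when arrays were weighted by their quality.

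In the comparison that did not choose the gene, cHF+ROSI against cHF, Stbd1 differed by 0.056 (SE 0.18, 95% interval -0.31 to 0.42, limma adjusted p 0.996), far less than the spread between arrays of 1 group. This value was 0.17 without replicate 1 of the cHF+ROSI group. In the order of the levels, cHF+F, cHF+ROSI and cHF, the last 2 did not differ beyond their spread.

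The difference was in the channel of the animals. In Cy5 alone, quantile-normalized between arrays, Stbd1 was higher in the cHF+F than in the cHF mice by 0.69, while in Cy3, which held the same pool on every array, the groups differed by 0.0082. Against the cHF+ROSI mice, the Cy5 difference was 0.70 and the Cy3 difference 0.062. None of the 9 genes passed a test in Cy3 in any of the 3 comparisons (limma, 0 with an adjusted p under 0.05 and 0 with an unadjusted p under 0.05). The Cy3 estimates were not all small, however. Between cHF+ROSI and cHF they were 0.56 for Ppp1r3a, 0.46 for Ppp1r3c and 0.43 for Phkg1, beside 0.55, 0.48 and 0.48 in Cy5. They were 0.25 for Phka1, 0.16 for Ugp2, 0.15 for Gbe1, -0.054 for Stbd1, -0.078 for Gys1 and -0.080 for Pygm.

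**Figure D2:**
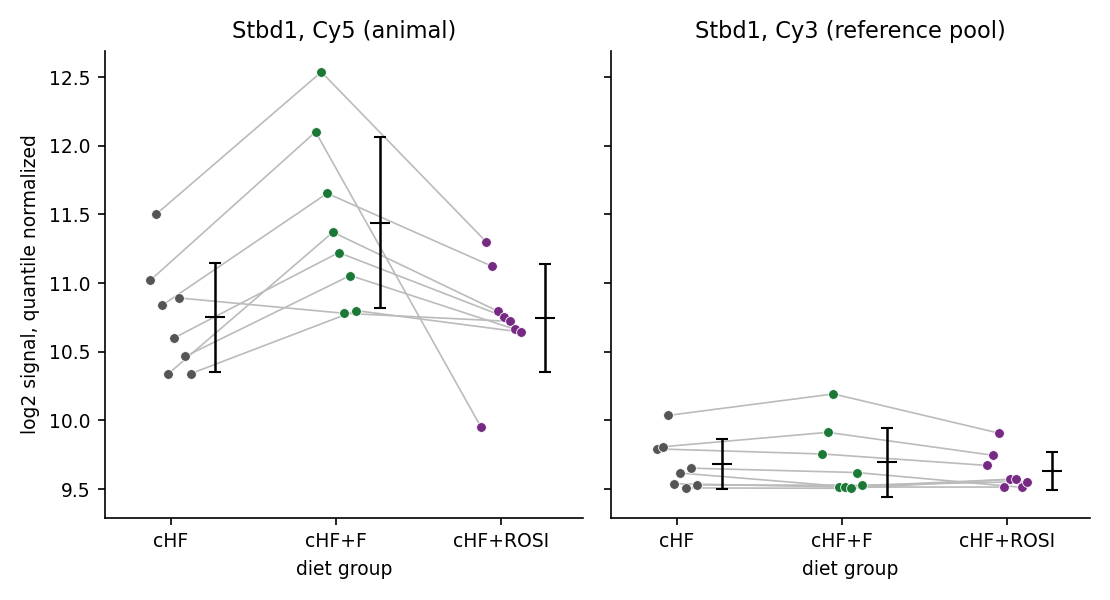
Log2 signal of Stbd1 in Cy5 (left, 1 mouse per array) and in Cy3 (right, the pool), quantile-normalized between arrays, by diet. Points are arrays, grey lines join the arrays of a slide, and bars are the mean and SD of 8 arrays. The difference of 0.69 between the cHF+F and the cHF mice is seen in Cy5 and not in Cy3.

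A further pair of probes, at chr5:93679843-93679902 and chr5:93679823-93679882 of mm8, carry the older name of the gene with another accession and overlap each other by most of their length. They were dim, with a mean signal of 3.92 and 3.72 times the background in Cy5, and gave cHF+F minus cHF differences of 0.11 (SE 0.082) and 0.12 (SE 0.083), in the same direction as the main probe but by a much smaller amount. Over the 24 arrays, after the group means were subtracted, they correlated with the main probe at r = 0.46 and 0.55, and with each other at 0.89. Within the cHF and the cHF+F mice, r with the main probe was 0.42 and 0.76 for the first and 0.52 and 0.82 for the second. In the cHF+ROSI mice it was -0.16 and -0.18.

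Of the genes that build glycogen, none passed the test in any comparison. Ugp2, which makes UDP-glucose, differed by 0.0094 in the cHF+F mice (SE 0.070; 1 flagged array left out, n = 7) and by -0.13 in the cHF+ROSI mice (SE 0.067; limma adjusted p 0.996), where the arrays ran from -0.39 over -0.20 to 0.085, overlapping those of the cHF mice (-0.23, -0.030 and 0.073). The other Ugp2 probe gave 0.068 and 0.046 and so did not share the sign of the cHF+ROSI value. Gys1, the muscle glycogen synthase, was at -0.14 ± 0.17 (cHF), -0.19 ± 0.13 (cHF+F) and -0.24 ± 0.28 (cHF+ROSI), with differences from cHF of -0.044 and -0.097 (SE 0.096). Gbe1, the branching enzyme, was at 0.18 ± 0.19, 0.052 ± 0.21 and 0.027 ± 0.24, lower by point estimate on 6 of 8 slides with either addition, and the differences of -0.13 and -0.15 (SE 0.0997) had limma adjusted p-values of 0.901 and 0.996.

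Of the genes that break glycogen down, Pygm, the muscle phosphorylase, was at -0.11 ± 0.27 (cHF), -0.097 ± 0.13 (cHF+F) and -0.20 ± 0.32 (cHF+ROSI), where replicates 1 and 3 of the last group were lowest, at -0.68 and -0.73. The differences from cHF were 0.014 and -0.087 (SE 0.12). Phkg1, the catalytic subunit of muscle phosphorylase kinase, was the steadiest member, with all 24 arrays between -0.081 and 0.19 and differences of 0.022 and 0.024 (SE 0.045). Phka1, the muscle form of the regulatory alpha subunit of the same kinase, was higher in the cHF+F than in the cHF array on 8 of 8 slides, but by 0.13 only (SE 0.10; 95% interval -0.078 to 0.33; limma adjusted p 0.907, and 0.476 with the slide as a block). Its cHF+ROSI difference was -0.047, and replicate 1 of that group, the array with the lowest Stbd1, also had the lowest Phka1, at -0.75, and the lowest Gys1, at -0.73. In the cHF and the cHF+F mice too, Gys1 was the lowest on replicate 1, at -0.51 and -0.36.

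Of the subunits that bring protein phosphatase 1 to glycogen, neither passed the test in any comparison. Ppp1r3c (also called PTG) was at -0.065 ± 0.49 (cHF), 0.31 ± 0.47 (cHF+F) and 0.0028 ± 0.40 (cHF+ROSI). The cHF arrays ran from -0.61 over -0.20 to 0.85, and the cHF+F arrays from -0.33 over 0.27 to 0.89, so that the groups overlapped and 1 cHF+F array lay above the highest cHF array. The cHF+F minus cHF difference was 0.38 (SE 0.21; 95% interval -0.046 to 0.80; limma adjusted p 0.802), and the other probe of the gene gave 0.38 as well (SE 0.17; limma unadjusted p 0.036, adjusted p 0.691). With the slide as a block the p-values adjusted over all probes were 0.301 and 0.216, and the cHF+F array was the higher one on 7 and 6 of 8 slides. The cHF+ROSI mice differed from cHF by 0.067 and 0.032 for these probes. Ppp1r3a, the subunit typical of striated muscle, was at 0.051 ± 0.12, -0.041 ± 0.16 and 0.072 ± 0.23, with differences of -0.093 and 0.021 (SE 0.084). Its other tested probe, at chr6:14704683-14704742 of mm8 against chr6:14664312-14664371 for the first, varied far more, with an SD of 0.72, 0.71 and 0.56 in the same order. Much of this followed the slides: the probe was at -1.40 (cHF), -1.35 (cHF+F) and -1.07 (cHF+ROSI) on slide 1. On slide 8 it was at 0.79, 0.71 and 0.73. The SE of its differences was 0.30, and 0.085 with the slide as a block. Over the 24 arrays it correlated with the first probe at r = -0.11 after the group means were subtracted. With the slide means subtracted as well, r was 0.47. The third Ppp1r3a probe was too dim, with a mean signal of 1.48 times the background in Cy5.

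**Figure D3:**
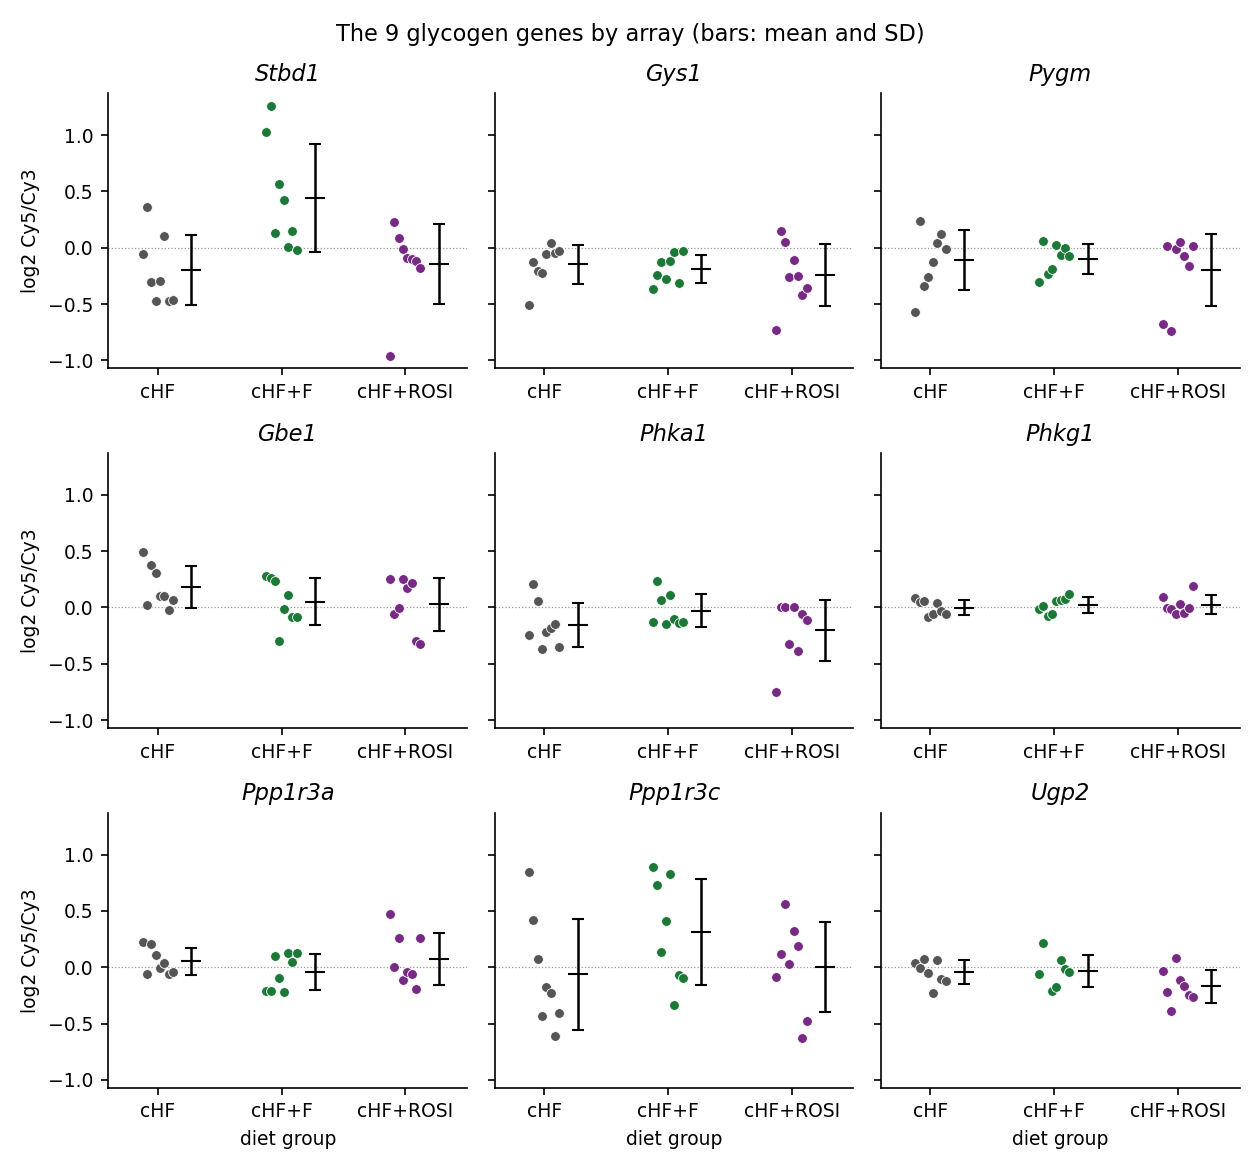
Log2 ratio of Cy5 over Cy3 of the 9 genes by diet, with 1 probe per gene, on a shared axis. Points are arrays and bars are the mean and SD of 8 arrays (7 for Ugp2 in the cHF+F mice). Stbd1 and Ppp1r3c spread the most and Phkg1 the least.

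Counted over the 8 genes other than Stbd1, 0 passed an adjusted p of 0.05 in limma in the cHF+F against the cHF mice, where 0 of 15958 probes did (0%), and 0 had an unadjusted p under 0.05 on the brightest probe, against 6.86% of all probes. Of these genes, 5 were higher and 3 lower, with a median difference of 0.012 beside 0.00063 over all probes, of which 50.4% were higher. In the cHF+ROSI against the cHF mice, likewise 0 of 8 passed the adjustment (0% of all probes) and 0 had an unadjusted p under 0.05 (4.7% of all probes), with 3 higher and 5 lower, where 45.3% of all probes were higher, and a median of -0.067 beside -0.0086. Both comparisons share the cHF arrays. When cHF+F was set directly against cHF+ROSI, 0 of 8 passed (0% of all probes), 0 had an unadjusted p under 0.05 (6.67% of all probes), and 6 were higher and 2 lower, where 54.2% of all probes were higher, and the median was 0.077 beside 0.0084. With the slide as a block, 1, 0 and 2 of the 8 genes had an unadjusted p under 0.05 in the 3 comparisons, against 12.1%, 9.55% and 13.1% of all probes, and 0 passed the adjustment (0.0376%, 0% and 0% of all probes).

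**Figure D4:**
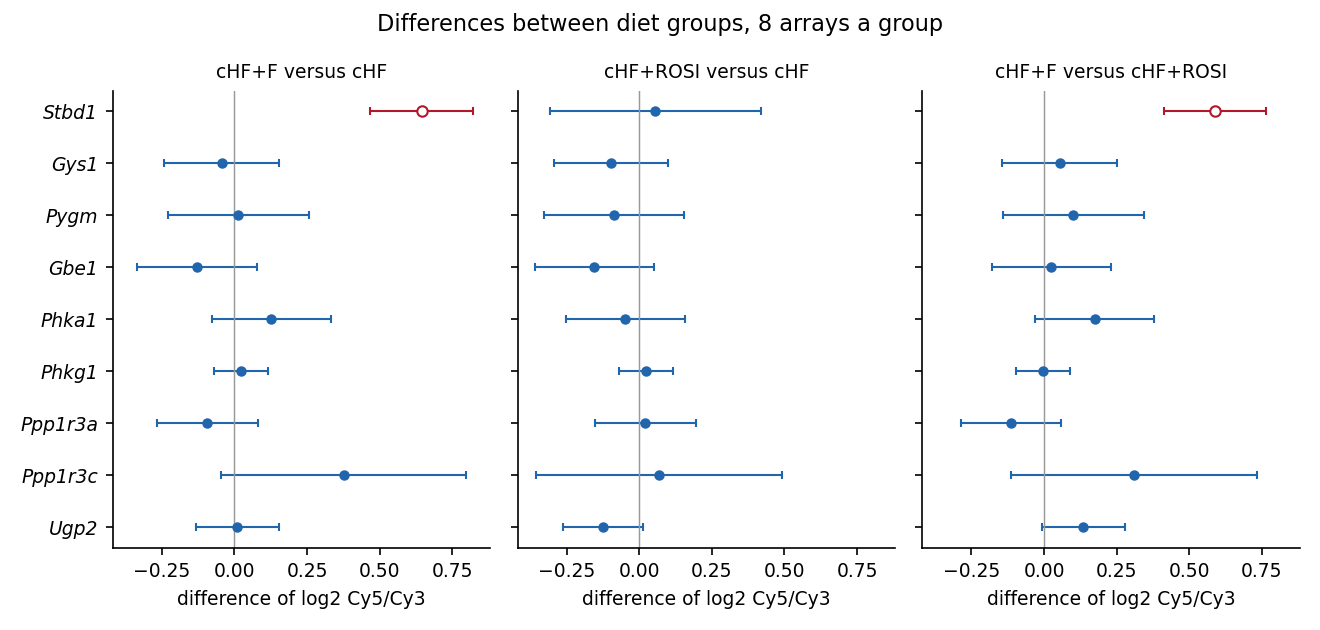
Differences of the log2 ratio between diet groups for the 9 genes, 1 probe per gene. Filled points are tested differences with their 95% interval in limma. Open points are those of Stbd1 that rest on the arrays for which it was chosen, with bars of 1 SE and no test. The interval of every tested difference includes 0, and the widest are those of Ppp1r3c and Stbd1.

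A list of 34 other genes of glycogen metabolism, with further enzymes, kinase and phosphatase subunits, GABARAP family members and the steps of glucose entry, had 27 genes bright enough to be tested. In the cHF+F against the cHF mice, 0 of them passed the adjusted p of 0.05 in limma and 1 had an unadjusted p under 0.05, against 6.86% of all probes, with 15 higher and 12 lower. That gene was Gabarapl1, a ubiquitin-like protein of autophagosomes to which Stbd1 binds. Gabarapl1 was at 0.12 ± 0.22 in the cHF mice (-0.24, 0.17 and 0.36 as the lowest, median and highest) and at -0.25 ± 0.40 in the cHF+F mice (-0.88, -0.27 and 0.25), with 4 cHF+F arrays below the lowest cHF array. The difference was -0.36 (SE 0.17; limma adjusted p 0.703). The cHF+ROSI mice had -0.17 ± 0.44, a difference of -0.28 from cHF (limma adjusted p 0.996), and a dimmer Gabarapl1 probe gave -0.11 and -0.083. The groups overlapped in each case. The choice of probe bore on Pygb, the brain form of phosphorylase: the probe that stood for it differed by -0.022, while another with a lower mean log2 signal gave -0.28 (limma unadjusted p 0.019, adjusted p 0.620), and -0.22 in the cHF+ROSI mice (unadjusted p 0.058). In Cy5 that probe had a median signal of 1.76 times the background, and 113 times on 1 array.

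In the cHF+ROSI against the cHF mice, none of the 27 genes had an adjusted or an unadjusted p under 0.05 in limma (0, against 4.7% of all probes unadjusted), with 12 higher and 15 lower. The smallest p-values belonged to Phka2, the liver form of the alpha subunit (-0.11, SE 0.054), to Calm3, 1 of the genes of calmodulin, which is also a subunit of phosphorylase kinase (0.16, SE 0.092), and to Gabarapl1, with 1 probe per gene. In the cHF+F against the cHF+ROSI mice, 19 of the 27 genes were higher and 8 lower, where 54.2% of all probes were higher. An unadjusted p under 0.05 was found for 3 of 27, against 6.67% of all probes, and 0 passed the adjustment. Among them were Gsk3b, a kinase that inhibits glycogen synthase, higher by 0.16 in the cHF+F mice (SE 0.073; limma adjusted p 0.740), and Ppp1r3d, a further phosphatase-targeting subunit, lower with a difference of -0.22 (SE 0.11; limma adjusted p 0.740). The arrays of both groups overlapped for either gene, and a second probe of Gsk3b gave 0.086. With the slide as a block, 3, 2 and 6 of the 27 genes had an unadjusted p under 0.05 in the 3 comparisons, against 12.1%, 9.55% and 13.1% of all probes, and 0 passed the adjustment.

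The spread between the arrays of 1 group differed widely between the genes. Each array of a group held another mouse and lay on another slide, so this spread includes that of mice and that of slides. With the slide as a block, the SE of a difference was 0.15 rather than 0.21 for Ppp1r3c, 0.16 rather than 0.18 for Stbd1 and 0.069 rather than 0.12 for Pygm. The SD within groups, pooled over the 3 diets, was 0.073 for Phkg1, smaller than that of nearly all probes (0.953% of the 15958 were smaller), and 0.13 to 0.25 for Ugp2, Ppp1r3a, Gys1, Phka1, Gbe1 and Pygm. That of Stbd1 was 0.39 and that of Ppp1r3c 0.45, larger than in 97.5% and 98.3% of all probes, where the median was 0.15. In the cHF+ROSI mice the wide spread of Stbd1 rested on replicate 1, without which the SD of the other 7 arrays was 0.14.

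To see which genes varied with Stbd1 apart from the diets, the group means were subtracted and each array's deviation was compared over the 24 arrays, as a description without a test, since arrays of a slide share their hybridization and all share the pool. Among 10225 genes the closest were Vps45 (r = 0.86, rho = 0.84), a protein of vesicle fusion, Wbp1l (0.81 and 0.79), Ccdc50 (0.80 and 0.69), Aurka (0.79 and 0.69), a mitotic kinase, and Jak2 (0.78 and 0.66), a cytokine receptor kinase. Without the 2 arrays farthest in Stbd1, replicate 1 of cHF+ROSI and replicate 2 of cHF+F, their r was 0.82, 0.77, 0.76, 0.73 and 0.65. These 5 were taken as the highest of 10225, so their size is in part that of the choice. The median r over all these genes was 0.0033, and the central 95% lay between -0.52 and 0.56.

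Among the other members, 3 had the largest r with Stbd1 in either direction. Ppp1r3c had r = 0.62 and rho = 0.69 (0.68 without the 2 farthest arrays), ranking 125 of 10225 genes, and r was 0.65, 0.84 and 0.27 within the cHF, cHF+F and cHF+ROSI mice. Phka1 had r = 0.61 and rho = 0.42, ranking 131, but 0.39 without the 2 farthest arrays, so that its relation rested in large part on them, and r within the diets, in the same order, was 0.64, 0.44 and 0.84. Ppp1r3a went the other way, with r = -0.59 and rho = -0.47 (-0.41 without the 2 farthest), but r was -0.060 within the cHF mice beside -0.87 and -0.62 in the cHF+F and cHF+ROSI mice. These values are those of the probe that stood for Ppp1r3a, with which its other tested probe correlated at r = -0.11. On replicate 1 of cHF+ROSI, that other probe deviated by -1.20, beside 0.40 for the first probe and -0.82 for Stbd1. Without the 2 farthest arrays, the values of Phka1 and Ppp1r3a lay inside the central 95% of all genes given above. That range was taken over all 24 arrays, and not again without the 2 farthest. Ppp1r3d of the other glycogen genes also ran against Stbd1 (r = -0.65, rho = -0.66, and -0.53 without these arrays). When the slide means were subtracted as well, r with Stbd1 was 0.68 for Ppp1r3c, 0.72 for Phka1 and -0.71 for Ppp1r3a. The other 5 members lay between -0.15 and 0.25. Over all 36 pairs of members, r ran from -0.61 to 0.64 with a median of 0.055, and the highest was that of Gbe1 with Ugp2.

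**Figure D5:**
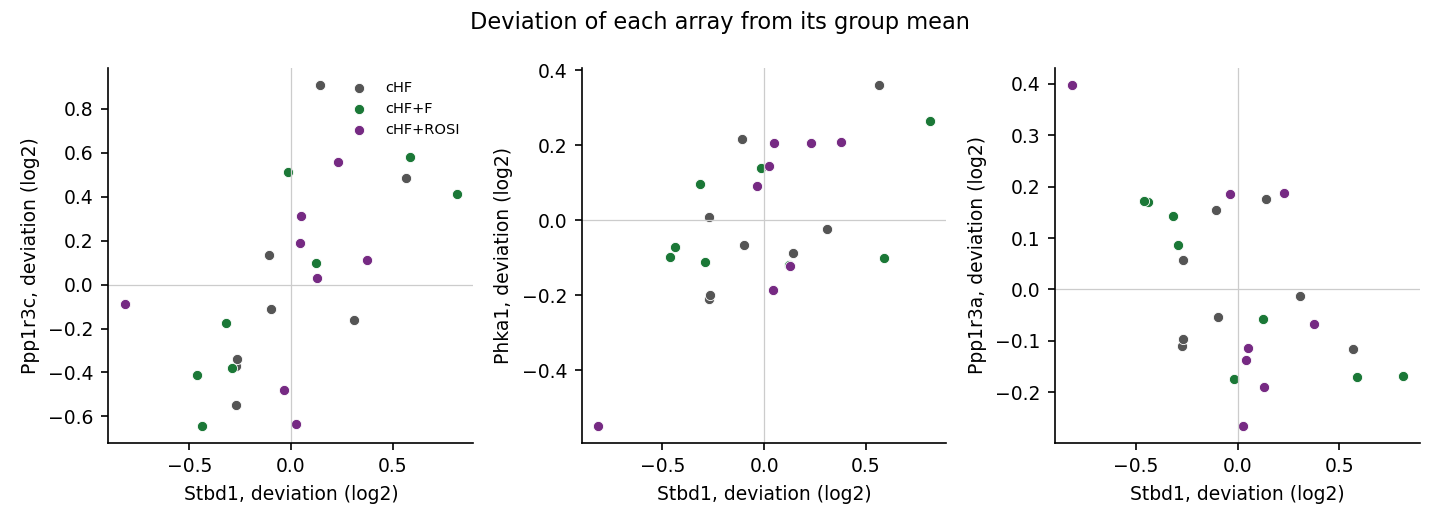
Deviation of each array from the mean of its diet group, for Stbd1 (horizontal axis) against Ppp1r3c, Phka1 and Ppp1r3a (vertical axes), in log2 units. Points are 24 arrays coloured by diet. Ppp1r3c rises with Stbd1 (r = 0.62), and Ppp1r3a falls on the probe that stood for it (r = -0.59). Phka1 rises with r = 0.61, and with 0.39 without the 2 arrays farthest in Stbd1.

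Markers of fibre types and of other cell types were set beside these values. The mean log2 ratio of 10 slow fibre markers was 0.076 ± 0.25 (SD, n = 8) in the cHF mice, from -0.30 to 0.54, -0.27 ± 0.36 in the cHF+F mice, from -0.90 to 0.27, and -0.10 ± 0.49 in the cHF+ROSI mice, from -1.10 to 0.54. It was thus lower where Stbd1 was higher, although within groups the deviations of Stbd1 and of this score were only weakly related (r = -0.27, 24 arrays), and its part in the Stbd1 difference was not tested. Myh7, Tnni1 and the other slow fibre markers were all well above background on 24 of 24 arrays. The 10 fast fibre markers were at 0.19 ± 0.26, 0.26 ± 0.23 and 0.073 ± 0.44, and the deviations of Ppp1r3c, but much less those of Stbd1 (r = -0.31), ran against them (r = -0.56). Ppp1r3c ran equally against the 10 skeletal muscle markers (r = -0.56), which share genes with the fast list and were at 0.13 ± 0.34, 0.21 ± 0.21 and 0.0019 ± 0.39. Pygm deviated with the skeletal muscle (r = 0.79) and fast fibre markers (0.60) and against the slow fibre markers (-0.55). Gys1 deviated with the endothelial markers (r = 0.64). The 7 adipocyte markers were at -0.33 ± 0.63, -0.37 ± 0.73 and -0.31 ± 0.47. The 6 macrophage markers stood at 0.0063 ± 0.18, -0.15 ± 0.27 and -0.077 ± 0.16, and the 5 endothelial markers at 0.11 ± 0.16, -0.11 ± 0.16 and -0.091 ± 0.11. Of 9 liver markers, 4 were well above background on at least 20 arrays, Alb among them, and the 6 tested were at -0.92 ± 0.55, -0.59 ± 0.67 and -0.19 ± 1.11, while 2 tested blood markers were at 0.022 ± 0.41, 0.00064 ± 0.63 and -0.38 ± 0.21. The deviations of Stbd1 had r = 0.33 (rho = 0.31) with the liver score and 0.28 (rho = 0.33) with the blood score, and those of Phka1 had r = 0.47 with the liver score. The part of these cell types in the values of the glycogen genes was not tested.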

How the data were processed

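Gastrocnemius RNA of 24 mice (Cy5) was hybridized against 1 pool (Cy3), which also held mice of a diet outside these groups, with no dye swap. Per the file headers, the deposited scanner files hold spot and background intensity on a linear scale from Feature Extraction version 10.5.1.1. The authors also deposited a table of normalized log2 values without dim spots, of which 16 columns served as an alternative and 8, named for a diet of no group here, were not used. Median signals were corrected by normexp (offset 50) and loess (span 0.3), flagged spots were left out, and probes needed values on 4 arrays per group and a mean signal of at least 2 times the background in each channel. Limma 3.58.1 in R 4.3.3 fitted the 3 groups without a block (two-sided, Benjamini-Hochberg over 15958 probes), and the brightest tested probe, that with the highest mean log2 signal over both channels and all arrays, stood for a gene. Mice were housed 2 per cage and the labels do not give the cages, so p-values measure the spread between these arrays, each of 1 mouse. Without a block, this spread includes that between slides. The members, lists and tests were chosen with earlier results of these data known. All members were named. Of the other glycogen genes, those with an unadjusted p under 0.05 were named, or else the 3 smallest, and of the genes alike to Stbd1 the 5 with the highest r. Of the genes so named, 1 is not reported here. Replicate numbers are slide numbers, as the headers show. Of 24 pairs of arrays on 1 slide, 18 had deviations correlated over 0.1 (median 0.25, lowest -0.11), and the slide served as a block in an alternative. Fits were checked on simulated data drawn without a correlation between arrays of a slide, so the check does not cover that correlation (0.31 in the random block). The number of arrays limits the precision. Other alternatives were background correction, normalization, channel, filters, flags, weights, the methods' test, the authors' table, and arrays left out.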

Additional observations from a re-analysis of the deposited data

Results flagged for a closer look

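The Stbd1 value of cHF+ROSI replicate 1 stood apart from its group. It was -0.96, while the nearest of the other 7 arrays was at -0.18, a gap of 0.655 of the whole range of the group, beyond the limit of Dixon's test for 8 arrays. Of 36 sets of arrays examined in this way (12 probes in 3 groups), this was the 1 that stood apart, and chance alone gives about 1 in 20 such sets. The low value was seen on the main Stbd1 probe only. On the 2 dim probes with the gene's older name, this array deviated from the cHF+ROSI mean by 0.072 and 0.067. On the same array Phka1 was at -0.75, Gys1 at -0.73 and Ppp1r3a at 0.47, but the other tested Ppp1r3a probe was at -1.07. Gys1 was the lowest on replicate 1, and so on this slide, in the cHF (-0.51) and the cHF+F mice (-0.36) too.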

How the results depend on the processing

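The counts of called members, of called other glycogen genes and of members called in Cy3 were 0 in all 264 recounts. These recounts include the slide as a replicate block (fixed or random) and each array left out in turn. Among all probes, 0 were called in the main fit of the diet comparisons. The most under any setting other than leaving out 1 array was 20 (cHF+F against cHF, random block). With so few called among all probes, the counts of 0 say little about the glycogen genes. With the replicate block, the Stbd1 difference between cHF+F and cHF stayed 0.64, with an SE of 0.16. Over the settings other than leaving out 1 array, it lay between 0.56 (array weights) and 0.73 (the authors' table), and with 1 array left out between 0.53 (without cHF+F replicate 2) and 0.73 (without cHF replicate 2). Relative to cHF+ROSI it lay between 0.35 (array weights) and 0.70 (Cy5 alone), and between 0.47 and 0.65 with 1 array left out. Of 485 values for single genes under these settings, those of Stbd1 included, 32 turned their sign, as did 28 of 816 with 1 array left out. None of the differences that turned passed the adjusted threshold, and the cause was not tested.

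Between cHF+F and cHF, the sign turned for Gys1 with Feature Extraction's processed signals (0.026), for Ppp1r3a in Cy5 alone (0.16) and for Ugp2 with median centring (-0.11). For Pygm it turned without background correction (-0.015), with median centring (-0.10), with loess span 0.1 (-0.0069), in Cy5 alone (-0.024) and without 3 arrays set apart in an earlier description (-0.018). Between cHF+ROSI and cHF, it turned in Cy5 alone for Stbd1 (-0.0050), Gbe1 (0.0041), Phka1 (0.27) and Ugp2 (0.12). The processed signals turned Phka1 (0.049), Ppp1r3a (-0.089) and Ppp1r3c (-0.055), no background correction turned Pygm (0.0090) and Ppp1r3a (-0.025), array weights turned Phka1 (0.037), and leaving out the 3 arrays turned Stbd1 (-0.019) and Ppp1r3c (-0.011). Between cHF+F and cHF+ROSI, median centring turned Pygm (-0.066), Gbe1 (-0.090), Phkg1 (0.018) and Ugp2 (-0.034), and Cy5 alone turned Gbe1 (-0.13) and Phka1 (-0.055). No background correction turned Pygm (-0.024) and Phkg1 (0.020), loess span 0.1 turned Pygm (-0.0048), the processed signals turned Phkg1 (0.023), and array weights turned Gys1 (-0.026) and Phkg1 (0.011).

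With 1 array left out, the differences that turned ran as follows. Between cHF+F and cHF, Pygm ran from -0.051 to 0.064 and Ugp2 from -0.031 to 0.040. Between cHF+ROSI and cHF, Phka1 ran from -0.078 to 0.031, Phkg1 from -0.00041 to 0.036, Ppp1r3a from -0.036 to 0.059 and Ppp1r3c from -0.012 to 0.20. Between cHF+F and cHF+ROSI, Gys1 ran from -0.016 to 0.11, Gbe1 from -0.025 to 0.075 and Phkg1 from -0.017 to 0.022. The authors' table covers cHF+F against cHF only. For the counts in Cy3 alone, median centring, the loess span, Cy5 alone, flagged spots kept and the authors' table were not run.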
